A study of Mus musculus with 24 samples.

Results

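H3K4me1 was followed from mouse embryonic stem (ES) cells to embryoid bodies (EB) in Prdm16 KO cells, using the 4 peak lists of H3K4me1 in Prdm16 KO among the 24 lists of the series. The 4 lists were chosen by their titles: 2 libraries of Prdm16 KO EB at day 6 and 2 libraries of Prdm16 KO ES cells. The wild-type counterparts, 2 libraries of H3K4me1 in wild-type EB and 2 in wild-type ES cells, and the 8 lists of H3K4me2 in the same cells were used for comparison. All cells had a C57BL/6 background. ES cells were grown on Matrigel with LIF, and EB, which are aggregates of differentiating ES cells, in a serum medium for which no LIF is named. The labels give neither the kind of Prdm16 mutation nor the number of KO clones. Whether both libraries of a group stem from separate cultures is not labelled, so a p-value over libraries covers the spread between these libraries alone, and that spread may be technical.

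H3K4me1, a single methyl group on lysine 4 of histone H3, is placed mainly by the KMT2C and KMT2D methyltransferases and is found at poised and active enhancers and on the flanks of active promoters. When ES cells leave pluripotency, enhancers of the pluripotent state lose the mark and enhancers of the emerging lineages gain it. PRDM16 belongs to the PR domain zinc finger proteins and is best known for its role in brown fat and in blood and neural stem cells. CUT&RUN releases the chromatin bound by an antibody with a tethered nuclease and sequences the fragments. Each library came as a list of called peaks, each with a position and a score that is the authors' own value, at least 50, with a unit that the sources used here do not give. A score was used only to describe, rank or filter peaks within its list. Lack of a peak was not read as lack of the mark, and a list of a bulk sample cannot tell fewer cells with the mark from less mark per cell.

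Overlapping peaks of the 4 lists on chromosomes 1 to 19, X and Y were merged into regions. A region with a peak in both EB lists and neither ES list is called EB-only here, the reverse ES-only, and a gene is called likewise from peaks within 2500 bp of either of its ends. Promoter sequences from RefSeq (GRCm38.p6, the coordinates of mm10) are shown for 6 genes whose promoter overlapped such a peak, wholly in 4 and in part in 2, because these are the places where a stage call and a known gene start meet. The motifs TATAAA for the TATA box, CCAAT for the CCAAT box, GGGCGG for the GC box, CACGTG for the E-box and ATGCAAAT for the octamer were searched on both strands, overlapping matches included. Capitals mark the matches, which in these 6 promoters were CCAAT boxes, GC boxes and 1 octamer, and each sequence runs 5′ to 3′ on the strand of its gene. The promoters of Tnfrsf14, a receptor of the tumour necrosis factor family (chr4:154928028-154928327, minus strand), of Myh7, a cardiac myosin heavy chain (chr14:54994577-54994876, minus strand), and of Pou5f1, the pluripotency factor OCT4 (chr17:35505782-35506081, plus strand), lay wholly under EB-only peaks.
Tnfrsf14: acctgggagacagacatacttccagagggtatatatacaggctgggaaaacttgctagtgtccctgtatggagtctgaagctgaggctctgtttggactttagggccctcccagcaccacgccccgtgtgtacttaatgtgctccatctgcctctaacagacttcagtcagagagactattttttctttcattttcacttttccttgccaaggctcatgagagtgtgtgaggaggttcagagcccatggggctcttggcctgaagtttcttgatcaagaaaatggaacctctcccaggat
Myh7: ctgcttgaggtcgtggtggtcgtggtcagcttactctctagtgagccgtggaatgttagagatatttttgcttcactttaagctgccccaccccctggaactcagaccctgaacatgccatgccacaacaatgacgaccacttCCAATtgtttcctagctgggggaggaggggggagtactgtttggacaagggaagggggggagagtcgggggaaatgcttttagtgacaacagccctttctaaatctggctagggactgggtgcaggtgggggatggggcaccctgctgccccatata
Pou5f1: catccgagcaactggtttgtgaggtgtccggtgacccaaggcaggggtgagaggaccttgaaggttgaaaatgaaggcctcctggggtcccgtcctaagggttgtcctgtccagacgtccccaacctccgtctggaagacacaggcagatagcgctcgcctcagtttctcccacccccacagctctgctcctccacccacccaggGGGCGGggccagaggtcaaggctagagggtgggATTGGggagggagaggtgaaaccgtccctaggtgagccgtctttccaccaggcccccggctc
The promoters of Zfp42, which encodes the naive pluripotency marker REX1 (chr8:43306960-43307259, minus strand), of Tcl1, an AKT co-activator of naive ES cells (chr12:105222688-105222987, minus strand), and of Ascl2, a basic helix-loop-helix factor of trophoblast (chr7:142969215-142969514, minus strand), overlapped ES-only peaks. The Tcl1 promoter lay under them whole, and of the 300 bases of the others the KO ES peaks covered 144 and 107 at Zfp42 and 40 and 151 at Ascl2, so marked letters there can lie outside the peaks.
Zfp42: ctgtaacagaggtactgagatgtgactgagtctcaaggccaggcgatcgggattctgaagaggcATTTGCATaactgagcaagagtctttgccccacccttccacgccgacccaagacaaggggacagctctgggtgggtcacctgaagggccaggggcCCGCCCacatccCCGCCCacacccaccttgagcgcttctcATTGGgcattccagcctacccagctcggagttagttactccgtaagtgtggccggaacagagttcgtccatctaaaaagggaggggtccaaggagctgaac
Tcl1: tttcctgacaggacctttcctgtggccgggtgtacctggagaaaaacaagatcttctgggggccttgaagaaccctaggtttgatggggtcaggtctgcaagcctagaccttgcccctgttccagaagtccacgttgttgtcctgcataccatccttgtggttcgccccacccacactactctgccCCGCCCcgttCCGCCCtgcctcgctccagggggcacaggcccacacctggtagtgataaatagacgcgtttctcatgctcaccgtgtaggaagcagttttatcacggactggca
Ascl2: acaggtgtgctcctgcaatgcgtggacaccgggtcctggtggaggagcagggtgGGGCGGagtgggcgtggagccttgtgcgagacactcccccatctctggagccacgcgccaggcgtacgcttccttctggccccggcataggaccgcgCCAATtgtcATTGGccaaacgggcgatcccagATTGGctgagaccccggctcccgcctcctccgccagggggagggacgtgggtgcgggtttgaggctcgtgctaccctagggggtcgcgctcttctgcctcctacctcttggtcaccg
Tnfrsf14 follows from the rule for named genes, and the other 5 were chosen after their values were seen. The promoters of Tram2, Galt, Mup4 and Nxpe2, which the rule also names, lay outside the peaks. So did another RefSeq promoter of Pou5f1 (chr17:35508557-35508856). Over all genes, a promoter was counted with a stage if peaks of that stage shared at least 1 bp with it. For genes with several promoters, the shares by stage used the first that met the peaks. The shares of all promoters used the first listed, so the sets differ in kind. The octamer letters, found here in Zfp42, occurred in 0.98% of the 102 promoters that overlapped EB-only peaks, a share that rests on very few sequences. They occurred in 3.81% of the 499 that overlapped ES-only peaks, against 1.71% of all 17492 promoters. The median number of CpG dinucleotides was 7 per 300 bp for promoters at EB-only peaks and 14 for those at ES-only peaks, against 13 for all promoters. A GC box was present in 44.1% of promoters at EB-only and 56.7% at ES-only peaks, against 46.3% of all, and a CCAAT box in 39.2% and 34.7%, against 39.0%. A match describes the letters in the window and is no site of binding.

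KO EB had fewer and narrower H3K4me1 peaks than KO ES cells. The KO EB lists held 8943 and 5990 peaks, and the KO ES lists 14945 and 13901. The groups did not overlap, and the means were 7467 ± 2088 in KO EB and 14423 ± 738 in KO ES cells (SD, n = 2 each), 1.97-fold more in ES cells (log2 EB over ES -0.98). The exact two-sided permutation test over libraries gave p = 0.33, the smallest that 6 assignments of 2 and 2 libraries allow. Peaks covered 17.5 and 13.1 Mb in KO EB and 35.7 and 37.1 Mb in KO ES cells, a difference of -1.26 on the log2 scale (exact permutation p = 0.33). Median peak width was 1533 and 1790 bp in KO EB and 1973 and 2320 bp in KO ES cells.

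The wild-type lists showed no such drop in number. They held 14082 and 13260 peaks in EB and 15435 and 12746 in ES cells, a log2 EB over ES ratio of -0.04 (exact permutation p = 1). They covered 31.3 and 26.2 Mb in EB and 35.4 and 32.7 Mb in ES cells, -0.25 on the log2 scale without overlap (exact permutation p = 0.33). Median widths were 1803 and 1515 bp in wild-type EB and 1868 and 2172 bp in wild-type ES cells, so peaks were narrower in EB there too. The stage difference in peak number in KO minus that in wild type was -0.94 (exact permutation of stage within genotype, two-sided p = 0.222 over 36 assignments, smallest possible 0.0556). This p measures departure from no stage difference in either genotype. Read totals were not analysed here, so depth is unknown, and its part in the shorter KO EB lists was not tested.

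**Figure D1:**
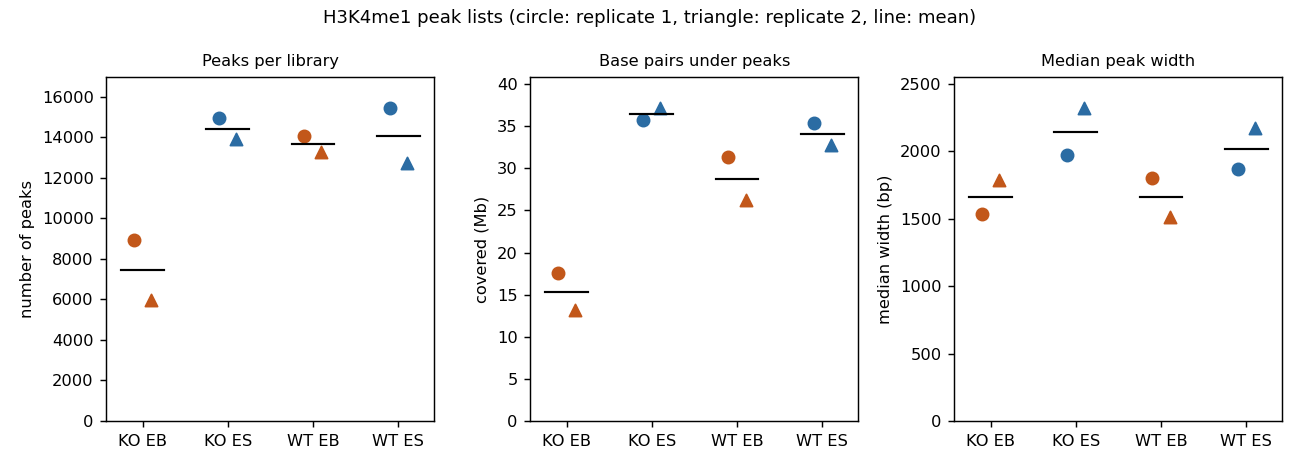
H3K4me1 peaks per library (left), megabases under peaks (middle) and median peak width in bp (right) for KO EB, KO ES, wild-type EB and wild-type ES; circles are replicate 1, triangles replicate 2 and lines the mean of the 2. The KO EB libraries, with 8943 and 5990 peaks, lie below all 6 other H3K4me1 libraries.

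The KO EB lists also overlapped each other less than the KO ES lists did. Of the peaks of KO EB replicate 1, 34.8% overlapped a peak of replicate 2, and 51.3% of the peaks of replicate 2 overlapped one of replicate 1. For KO ES cells these shares were 60.2% and 63.9%. Across stages, 25.2% to 28.9% of KO EB peaks overlapped a KO ES list. Shares of this kind move with list length.

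Merging gave 27855 regions. EB-only regions numbered 1782, 6.4% of all regions (95% Wilson interval 6.12 to 6.69, counting error only), and ES-only regions 6678, 24% (23.5 to 24.5). Each of the other 4 choices of 2 lists pairs 1 EB with 1 ES list, and these choices held 149 to 372 regions. Both stage counts therefore lay above every choice that mixes the stages. A further 834 regions had a peak in all 4 lists and 15698 (56.4%) in 1 list. In wild type, 4678 regions were EB-only (14% of 33372) and 5412 ES-only (16.2%), with 222 to 426 in the other choices. The ES-only count was 3.75 times the EB-only count in KO and 1.16 times in wild type.

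The counts differed when the lists were cut by score, which changes their length and the scores they hold together. The part of either was not tested. With each KO list cut to its 5990 highest-scoring peaks, 1868 regions were EB-only and 2513 ES-only, a ratio of 1.35, with 124 to 159 in the other choices. With scores of at least 100 alone, the counts were 242 and 2059. Called on replicate 2 or replicate 1 alone, a weaker criterion, EB-only regions numbered 3885 and 6035 and ES-only regions 11074 and 11940.

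**Figure D2:**
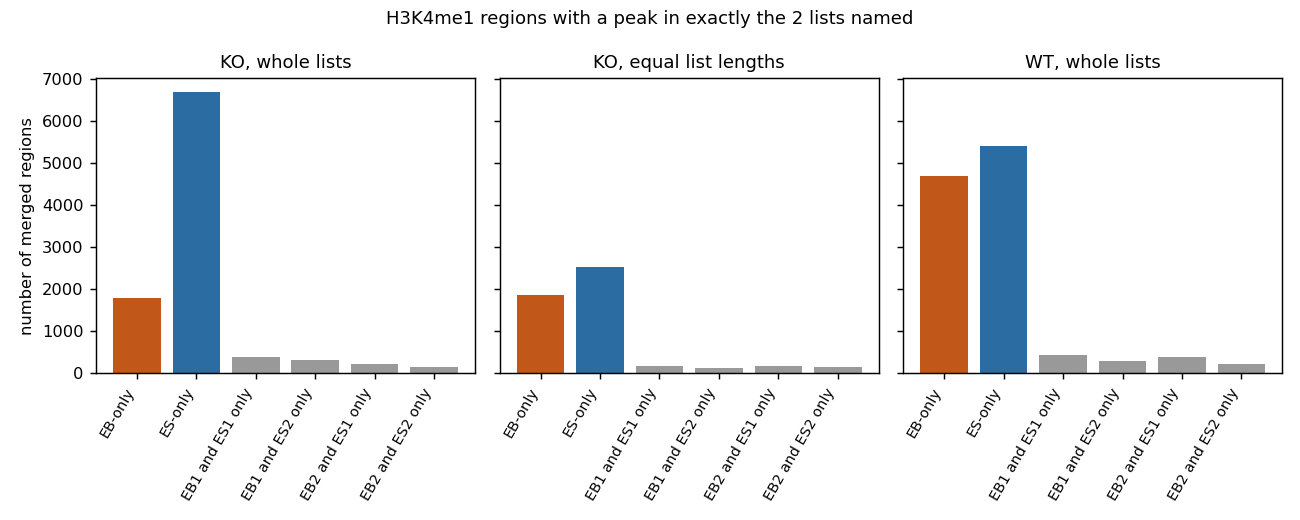
Number of merged H3K4me1 regions with a peak in exactly the 2 lists named, for the whole KO lists (left), for KO lists of equal length (middle) and for the whole wild-type lists (right). EB-only and ES-only counts, 1782 and 6678 in the whole KO lists, stand above the 4 mixed choices in each panel, and the gap between them narrows to 1868 and 2513 at equal length.

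Most stage regions lay away from gene ends, as did most of all 27855 regions, of which 26.5% lay at a gene end. Of the EB-only regions 19.9% lay within 2500 bp of a protein-coding gene end, 42.1% elsewhere in a gene span and 38.0% outside genes. Of the ES-only regions these shares were 25.5%, 38.5% and 36%. The mixed choices had 34.4% to 43.4% at gene ends and the regions of all 4 lists 31.5%. Median widths were 2730 bp for EB-only and 2917 bp for ES-only regions, against 4335 bp for regions in all 4 lists. Stage calls were more frequent among low-ranked regions. Of the regions in both EB lists, 60.9% of the lowest of 5 equal groups by score rank and 47.7% of the highest were EB-only. Of those in both ES lists, 80.6% of the lowest group and 66.8% of the highest were ES-only.

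The EB-only regions of highest rank at gene ends were led by a site near Elobl (chromosome 11, 88967580 to 88969654), with scores of 332 and 222 in the KO EB lists and no peak in either KO ES list. The next were at Gm34296, Fam163a, Tnfrsf14, Meis3, Iqsec1, Tram2, Il11ra1, N4bp3 and Pigv. MEIS3 is a TALE homeobox factor that acts with HOX proteins, and IL11RA1 is the receptor chain for interleukin 11. The Meis3 region (chromosome 7, 16171886 to 16174350) scored 172 and 141 in KO EB. Away from gene ends, the highest ranks included regions 46631 bp from Col1a2, which encodes a fibrillar collagen chain, and 2 regions inside Mocs1, a molybdenum cofactor synthesis gene, with scores of 200 and 167 and of 184 and 265.

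Among ES-only regions at gene ends, the highest rank fell to Vrtn, the vertnin gene (chromosome 12, 84639929 to 84643551), with scores of 290 and 280 in the KO ES lists and no peak in either KO EB list. All 4 wild-type lists had a peak at this region. Others were at Mup4, Tmem123, Nxpe2, Tdg, Gm5681, Kdm7a, Cyp4a31, Gsg1 and Sgms2. TDG is the DNA glycosylase that removes oxidised methylcytosine, and KDM7A is a histone demethylase. The Tdg region (chromosome 10, 82650328 to 82654047) scored 238 and 221 in KO ES cells and lies at the shared end of Tdg and Glt8d2. Away from gene ends, regions 22269 bp from Orc5, an origin recognition gene, and inside Tafa1 and Srgap3, which act in neurons, ranked highest.

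The 5 windows of 100 kb with the most EB-only regions held 3 each. They lay at Rin3 and Lgmn, at Kctd6, Acox2 and Fam107a, at Prickle1, a planar cell polarity gene, at Igf2r, an imprinted receptor, and at Mpped2. The wild-type lists had 0 EB-only regions in the windows at Rin3 and Lgmn and at Mpped2, and 1 or 2 in the others. The Igf2r window also held 1 ES-only region of KO. No expected number per window was computed. For ES-only regions, a window at Mbp and Zfp236 on chromosome 18 held 6, and the wild-type lists had 4 ES-only regions in the same window. Windows at Ddx59 and Kif14, Nlrp4f and Zfp369, Ndrg2 and Rnase13, and Gpr20 and Ptp4a3 held 5 each.

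Stage regions of KO H3K4me1 were then set against the 12 other H3K4 methylation lists, which took no part in choosing them. Wild-type H3K4me1 followed the KO stage calls at both kinds of region. At EB-only regions, wild-type EB lists had a peak at 64.2% and 61.9%, and wild-type ES lists at 9.82% and 6.34%. At ES-only regions, wild-type EB lists had a peak at 16.8% and 15.4%, and wild-type ES lists at 73.5% and 69.1%. At neither kind of region did the stages overlap.

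H3K4me2, a mark of enhancers and promoters alike, was read at the same regions. Its lists differ in length, with 15205 and 13818 peaks in KO EB and 29138 and 32874 in KO ES cells. At ES-only regions, KO EB lists of H3K4me2 had a peak at 18.9% and 17.6%, and KO ES lists at 67.5% and 72.1%. At the regions of the mixed choices, which have no stage call, these shares were 35.8% to 41.5% for KO EB and 57.0% to 72.5% for KO ES, so a gap between the stages stood there as well. At EB-only regions the values lay close together, with 24.3% and 22.8% for KO EB and 18.6% and 20.9% for KO ES, a mean difference of 3.82 percentage points. In wild type, H3K4me2 was present at 23.5% and 43.3% of EB-only regions in EB, against 17.6% and 16.4% in ES cells. The higher EB value came from a library of another library series. The KO ES library with 72.1% of ES-only and 20.9% of EB-only regions is of that other series as well. At ES-only regions the wild-type H3K4me2 values were 19.1% and 25.7% in EB and 57.0% and 51.3% in ES cells.

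For each of these lists the share of EB-only minus the share of ES-only regions was taken, and its mean over EB lists exceeded that over ES lists by 71.2 percentage points over the 3 sets (exact permutation of stage within sets, two-sided p = 0.00926, the smallest these assignments allow). By set the difference was 110 points for wild-type H3K4me1, 55.4 for KO H3K4me2 and 48.1 for wild-type H3K4me2, each with p = 0.33, the smallest that 6 assignments allow in the exact test. Taken apart, the share of EB-only regions was 25.1 points higher in EB than in ES lists and the share of ES-only regions -46.2 points (exact permutation p = 0.00926 each). Over both H3K4me2 sets alone, the differences were 10.1 and -41.7 points (exact permutation p = 0.0556 each, the smallest that 36 assignments allow). The same statistic for pairs of mixed choices was 1.44 points (exact permutation p = 0.352) and 4.20 points (p = 0.0278). The PRDM16 lists, which hold few peaks, touched 0.11% to 0.45% of either kind of region.

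**Figure D3:**
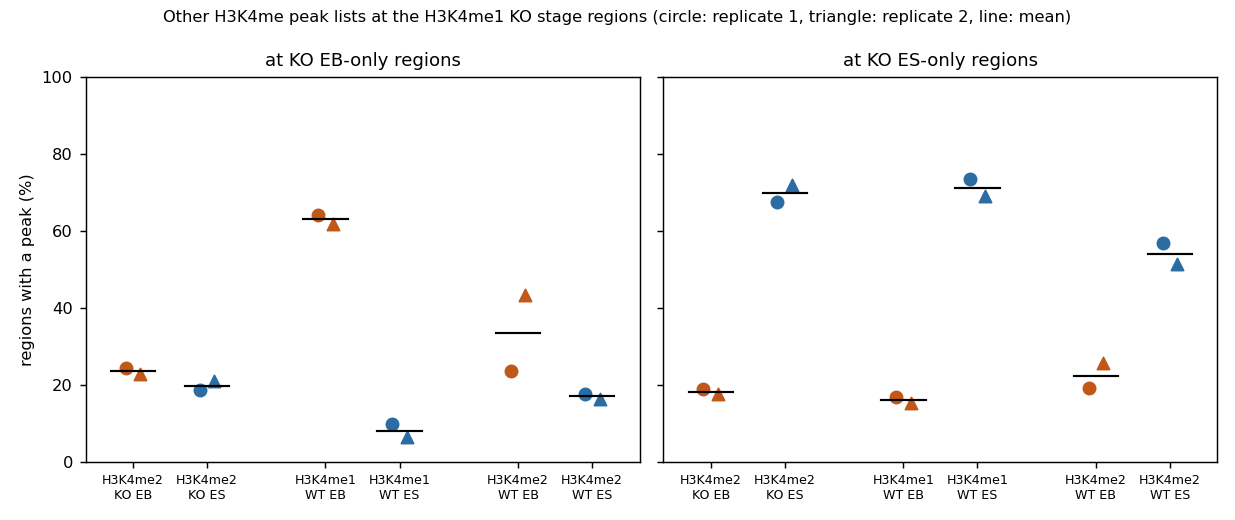
Share of KO EB-only regions (left) and KO ES-only regions (right) with a peak in each of the 12 other H3K4 methylation lists, in percent; circles are replicate 1, triangles replicate 2 and lines the mean. Wild-type H3K4me1 separates the stages at both kinds of region, and KO H3K4me2 lies at 18.6% to 24.3% in both stages at EB-only regions but at 67.5% and 72.1% in ES cells alone at ES-only regions.

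Joint calls were counted region by region. Of the 1782 EB-only regions, 783 (43.9%) were EB-only in the wild-type H3K4me1 lists, 9 were ES-only and 410 (23.0%) had no wild-type peak. Of the 6678 ES-only regions, 2845 (42.6%) were ES-only in wild type, 65 were EB-only and 863 (12.9%) had no wild-type peak. Of the regions of the mixed choices, 8.72% to 13.0% were EB-only and 7.38% to 10.5% ES-only in wild type. With KO H3K4me2, 109 EB-only regions (6.12%) were EB-only for H3K4me2 as well and 104 were ES-only, while 1023 (57.4%) had no H3K4me2 peak. Of the ES-only regions, 3022 (45.3%) were ES-only for KO H3K4me2 and 84 EB-only. Of the regions of the mixed choices, 3.77% to 4.70% were EB-only and 21.2% to 26.2% ES-only for KO H3K4me2.

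The same lists were also read from the wild-type side. Of 4678 wild-type EB-only regions, 940 (20.1%) had a peak in both KO EB lists, 1236 (26.4%) in 1 and 2502 (53.5%) in neither. Of 5412 wild-type ES-only regions, 3166 (58.5%) had a peak in both KO ES lists and 827 (15.3%) in neither. Rank mattered on both sides: from the lowest to the highest of 5 equal groups of wild-type score rank, the share in both KO lists of the stage went from 8.55% to 38.1% for EB-only regions and from 34.8% to 88.2% for ES-only regions. The difference between stages goes with the shorter KO EB lists and was not tested apart from them.

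**Figure D4:**
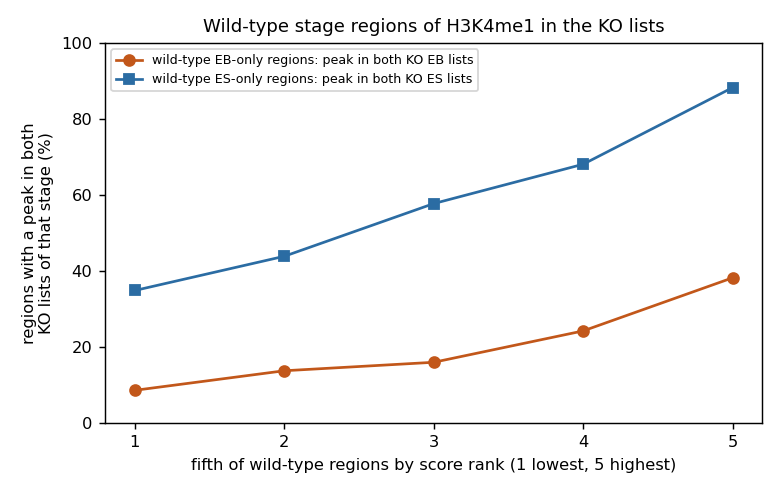
Wild-type EB-only and ES-only H3K4me1 regions, in 5 equal groups by score rank (1 lowest, 5 highest), with the percent that had a peak in both KO lists of the same stage. EB-only regions run from 8.55% to 38.1% and ES-only regions from 34.8% to 88.2%.

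At the level of genes, 340 of 21887 protein-coding genes were EB-only (1.55%) and 1780 were ES-only (8.13%), with 95 to 190 in the other choices. A peak lay at 2360 and 1710 genes in the KO EB lists and at 4568 and 4347 in the KO ES lists. In wild type, 803 genes were EB-only (3.67%) and 1461 ES-only (6.68%). Cut to equal length, the KO lists gave 443 EB-only and 549 ES-only genes, among them 264 of the 340 and 497 of the 1780. Called on replicate 2 or replicate 1 alone, EB-only genes numbered 716 and 1045 and ES-only genes 3049 and 3171.

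The genes were set beside those that changed between stages in wild type. Of the KO EB-only genes, 134 were EB-only in wild type, which is 39.4% of the 340 and 16.7% of the 803, and 6 were ES-only there. The other wild-type choices, of 129 to 240 genes each, shared 0 to 9. That is 0% to 3.75% of their genes, against 1.55% of all genes. Of the KO ES-only genes, 648 were ES-only in wild type, which is 36.4% of the 1780 and 44.4% of the 1461, and 16 were EB-only there. With these genes the other wild-type choices shared 17 to 35, which is 9.17% to 16.6% of their genes, against 8.13% of all genes. A further 58 KO EB-only and 159 KO ES-only genes had no peak in any wild-type list. With all 8 lists at equal length, 142 EB-only genes were shared, 32.1% of the 443 in KO and 29.8% of the 476 in wild type, and 196 ES-only genes, 35.7% of the 549 and 29.9% of the 655. The unequal shares of the wild-type genes, 16.7% and 44.4% in the whole lists, were thus nearly equal at equal list lengths. Without KO EB replicate 2 the EB-only overlap was 242 genes. Conversely, 275 wild-type EB-only genes and 211 wild-type ES-only genes had no peak in any KO list.

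Genes were also compared with H3K4me2 calls made the same way. KO H3K4me2 called 4.12% of all genes EB-only and 6.26% ES-only. The KO EB-only genes for H3K4me1 shared 45 genes with KO H3K4me2 EB-only genes, 13.2% of the 340 and 4.99% of the 902. They shared 14 with KO H3K4me2 ES-only genes, 4.12% of the 340, against 6.26% of all genes. The KO ES-only genes shared 218 with KO H3K4me2 ES-only genes, 12.2% of the 1780 and 15.9% of the 1371. They shared 91 with KO H3K4me2 EB-only genes, 5.11% of the 1780, against 4.12% of all genes. In wild type, where H3K4me2 called 3.3% EB-only and 4.3% ES-only, the same-direction overlaps were 34 and 162 genes. A KO H3K4me2 peak in both lists of the stage was present at 52.1% of the EB-only genes, against 48.8% of all genes, and at 76.0% of the ES-only genes, against 52.8% of all genes.

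The 10 genes EB-only in both genotypes with the highest rank were Gm34296, Tnfrsf14, Tram2, Galt, Il11ra1, N4bp3, Ppp1r14a, Slc39a4, Tm7sf3 and Lrrc47. Tnfrsf14 had scores of 197 and 144 in KO EB and no peak in KO ES, and was EB-only for KO H3K4me2 as well, as were Gm34296 and Tm7sf3. Galt, an enzyme of galactose metabolism, and Il11ra1 are neighbours and shared 1 region (chromosome 4, 41759502 to 41763201), with scores of 142 and 147. SLC39A4 is the intestinal zinc importer, with scores of 179 and 107.

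The 10 genes ES-only in both genotypes with the highest rank were Mup4, Tmem123, Nxpe2, Glt8d2, Tdg, Cyp4a31, Sgms2, Gimap9, Cspg5 and Akr1b10. Mup4, a major urinary protein gene, had scores of 269 and 247 in KO ES and no peak in KO EB, and Cyp4a31, a fatty acid hydroxylase gene, had 209 and 249. Both were ES-only for KO H3K4me2 too. Mup4 belongs to a cluster of near-identical genes, where reads may be placed ambiguously. Sgms2 makes sphingomyelin and Cspg5 is a neural proteoglycan. The calls hold within 2500 bp of the gene ends. The merged region at Cspg5 (chromosome 9, 110245602 to 110251665) also held a peak of KO EB replicate 2 with a score of 51.5, and the region at Mup4 a peak of wild-type EB replicate 1, both outside that window.

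Named developmental genes were described through 18 lists of 354 genes. Of these, 15 (4.24%) were EB-only and 39 (11.0%) ES-only, against 1.55% and 8.13% of all genes. Of the 15, 6 were EB-only and 0 ES-only in wild type, and of the 39, 17 were ES-only and 1, Tead4, EB-only in wild type. At equal list lengths 11 of the 15 and 12 of the 39 kept their call. KO H3K4me2 had the same call at 2 of the 15 and 8 of the 39, and the opposite call at 2 of each, which were Krt7 and Hoxd9 among the EB-only and Klf5 and En2 among the ES-only genes. The counts per list are small and are given beside the share over all genes.

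Of 26 naive pluripotency genes, 2 were EB-only (7.69%) and 6 ES-only (23.1%). The EB-only members were the central pluripotency genes Nanog and Pou5f1. The Nanog region lies at the 3′ end of the gene (chromosome 6, 122713472 to 122717931) and scored 221 and 76.3 in KO EB, with no peak in either KO ES list. The wild-type lists gave the same call. Pou5f1 had a region over its start (chromosome 17, 35500856 to 35507798), which scored 84.5 and 59.4 in KO EB. None of the 4 wild-type lists had a peak there, and KO H3K4me2 was EB-only at the gene.

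The ES-only members were Klf5, Tfcp2l1, Zfp42, Dppa4, Tcl1 and Spp1. Zfp42 scored 105 and 91.9 in the KO ES lists, at its start, and Tcl1 scored 112 and 91.4, at its start, with no peak in either KO EB list for either gene. Both were ES-only in wild type. TFCP2L1 is a core factor of naive pluripotency, and its region at the 3′ end (chromosome 1, 118686061 to 118691485) scored 83.5 and 111 in KO ES. Klf5, a Krüppel-like factor of self-renewal, scored 58.0 and 56.8 in KO ES, near the lowest score in the lists, and its KO H3K4me2 call was the opposite, EB-only. At equal list lengths 2 of the 6 were left, Zfp42 and Tcl1.

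Primed epiblast genes held 1 EB-only gene of 16, Lef1, and 2 ES-only genes, Otx2 and Foxd3. LEF1 is a nuclear effector of Wnt signalling, with scores of 101 and 99.8 at its start in KO EB. OTX2, a homeobox factor of the epiblast and forebrain, scored 202 and 141 at its 3′ end in KO ES and was ES-only in wild type. Neuroectoderm genes held 1 call each way of 22. Olig2, a factor of oligodendrocyte and motor neuron precursors, was EB-only through a different peak in each list, with scores of 55.4 and 65.8, so no single region carried the call. En2, a midbrain homeobox gene, scored 106 and 61.3 in KO ES. The calls of Olig2, En2 and Foxd3 were lost at equal list lengths.

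The 3 mesodermal lists held 1 EB-only gene each and 1 to 3 ES-only genes. Tcf15, a somite factor, was EB-only (55.2 and 69.1 in KO EB) and Foxc2, a factor of paraxial mesoderm, ES-only (60.8 and 74.1 in KO ES), each as in wild type, out of 23 primitive streak and mesoderm genes. Among 15 cardiac genes, Myh7 was EB-only in KO and wild type, with scores of 174 and 83.9 at its start in KO EB. Tbx20 (169 and 85.7 in KO ES) and Hand2, transcription factors of the heart, were ES-only, Hand2 through a different peak in each list. Among 19 blood and endothelial genes, Kdr, the VEGF receptor of the haemangioblast, was EB-only in both genotypes, with scores of 73.4 and 59.0 at its 3′ end. Tal1, Etv2 and Fli1, the early transcription factors of the same lineage, were ES-only. Tal1 scored 166 and 80.9 at its start in KO ES, Etv2 89.8 and 70.4, and Fli1 80.8 and 67.4, and wild type repeated the call for Etv2 and Fli1. At equal list lengths the ES-only calls of Tal1, Etv2, Fli1, Hand2 and Foxc2 were lost, as was the EB-only call of Tcf15, and the blood and endothelial list was left with 1 EB-only and 0 ES-only genes.

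The 18 endoderm genes had no EB-only call, and Foxa1 and Foxa2, the pioneer factors of endoderm, were ES-only, with scores of 176 and 117 for Foxa1 in KO ES and of 67.2 and 91.2 for the higher of the Foxa2 regions. Foxa1 kept its call at equal list lengths and Foxa2 did not. Of 13 trophoblast genes, Krt7, a simple epithelial keratin, was EB-only with 86.7 and 61.9 at its start in KO EB, in wild type as well, while KO H3K4me2 was ES-only at the gene. ES-only were 5 (38.5%), Gata3, Tead4, Krt8, Ascl2 and Esx1. Ascl2 scored 142 and 117 in KO ES and was ES-only in wild type. Ascl2 was the only ES-only gene of this list at equal list lengths. None of 15 housekeeping genes, 12 fibroblast or feeder markers and 16 mature tissue genes was EB-only or ES-only in KO.

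The Hox genes, regulators of position along the body axis, had 2 EB-only and 6 ES-only members of 39 (5.13% and 15.4%). Hoxd1 (113 and 69.4 in KO EB) and Hoxd9 (89.0 and 52.3) were EB-only, and each had a peak in at least 1 wild-type ES list. Hoxb1, an early retinoic acid target in the hindbrain, scored 181 and 163 in KO ES. Hoxc4, Hoxc6, Hoxc9, Hoxb13 and Hoxd3 were also ES-only, the last 2 through different peaks in the 2 lists. Of the 6, Hoxb1 alone was left at equal list lengths, beside 2 EB-only genes.

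**Figure D5:**
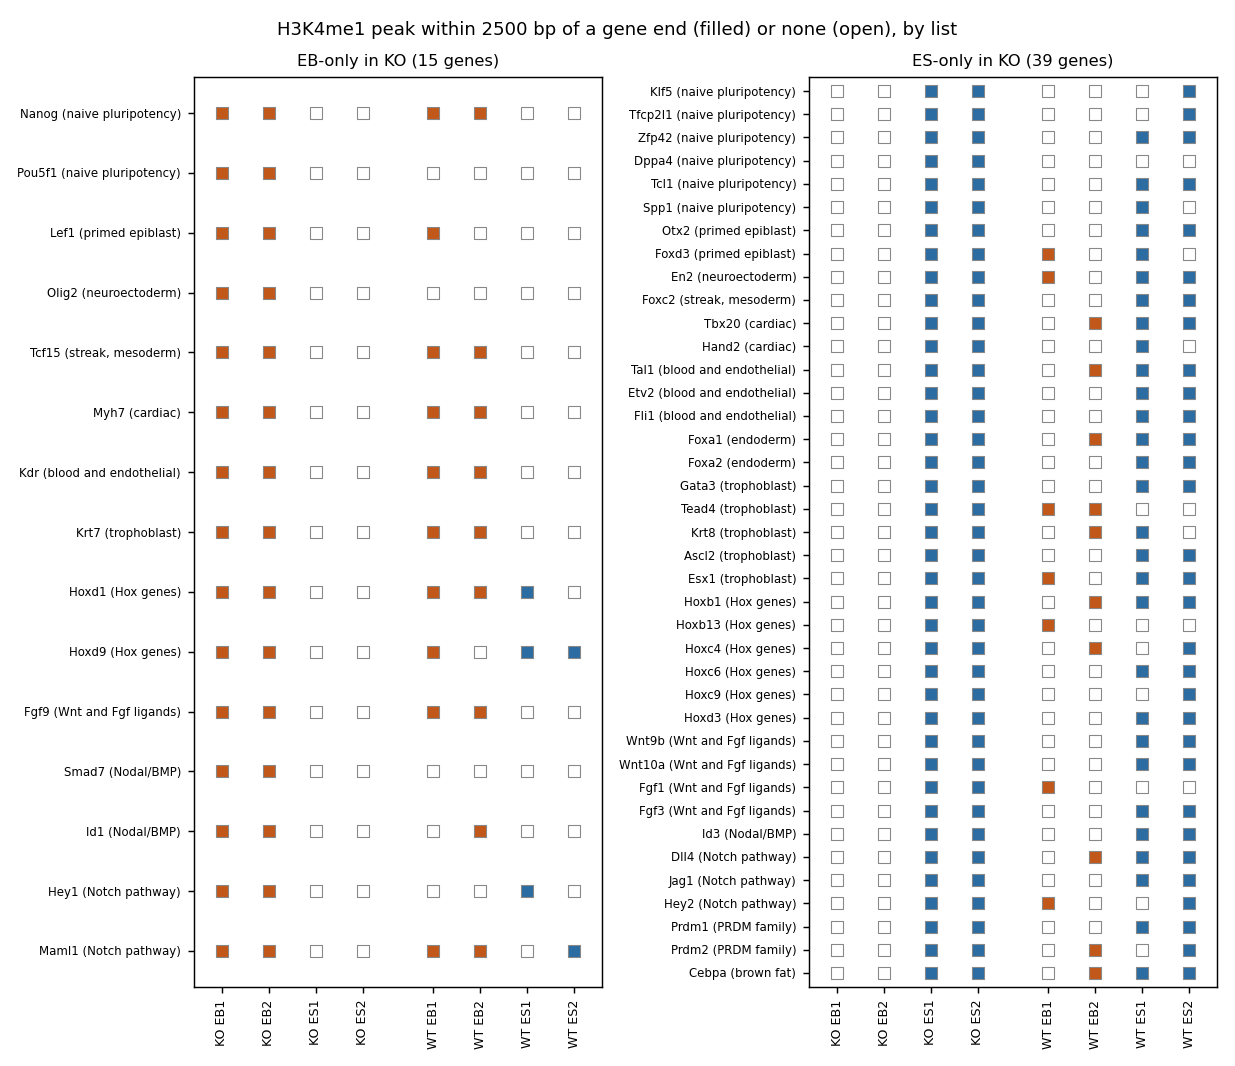
The 15 EB-only (left) and 39 ES-only (right) members of the gene lists in KO, with a filled square where the H3K4me1 list of that column had a peak within 2500 bp of a gene end and an open square where it had none; columns are KO EB, KO ES, wild-type EB and wild-type ES, replicates 1 and 2. The KO columns fix the rows, and the wild-type columns show 6 of 15 and 17 of 39 genes with the same call.

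Signalling genes were called in both directions. Among 26 Wnt and Fgf ligands, Fgf9 was EB-only (77.6 and 75.4 in KO EB), and Wnt9b, Wnt10a, Fgf1 and Fgf3 were ES-only. Wnt9b had the highest scores of these, 197 and 150 in KO ES, and Wnt9b, Wnt10a and Fgf3 had the same call in wild type. The balance of this list turned at equal list lengths, with 4 EB-only and 2 ES-only genes, the ES-only ones being Wnt9b and Wnt10a. Among 29 genes of the Nodal, BMP and TGF-beta pathway, the feedback inhibitor Smad7 (51.0 and 66.3) and the BMP target Id1 (108 and 87.7) were EB-only, and Id3, another BMP target, was ES-only (123 and 100.4 in KO ES). Among 21 Notch genes, the target gene Hey1 and the co-activator Maml1 were EB-only. The ligands Dll4 (119 and 116 in KO ES) and Jag1 (86.4 and 119) and the target Hey2 were ES-only. The calls of Smad7, Hey1 and Jag1 were lost at equal list lengths.

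Lists of genes tied to the mark or to PRDM16 had 0 EB-only genes and 0 to 2 ES-only genes each. The list named H3K4 methylation enzymes holds 16 genes for methyltransferases, subunits of their complexes and demethylases. Of these 0 were called either way. No member had a peak within 2500 bp of an end of its span in both lists of either stage. At Kmt2d, whose annotated start lies inside the span, both lists of both stages had a peak within 2500 bp of that start. In wild type, Setd1b was EB-only, and Kmt2c, Kmt2d and Ash2l were ES-only. Of 13 PRDM family genes, Prdm1 (72.9 and 195 in KO ES), the repressor BLIMP1, and Prdm2 were ES-only. Of 15 brown fat genes linked to PRDM16, Cebpa, an adipogenic factor, was ES-only with 70.5 and 147 in KO ES. The ES-only shares of the PRDM family (15.4%) and of the brown fat genes (6.67%) lie on either side of the 8.13% of all genes, and all 3 calls were lost at equal list lengths.

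Since most regions lay away from gene ends, those within 50 kb of a gene span were counted too. Over all genes, 13.5% had an EB-only and 41.4% an ES-only region in reach. Naive pluripotency genes had 7 and 18 of 26 (26.9% and 69.2%) and trophoblast genes 5 and 11 of 13 (38.5% and 84.6%). The list named H3K4 methylation enzymes had 1 and 12 of 16 (6.25% and 75%). Neuroectoderm genes had 1 and 10 of 22 (4.55% and 45.5%). Over the 18 lists the shares ran from 0% (housekeeping) to 38.5% (trophoblast and PRDM family) for EB-only and from 25% (fibroblast or feeder) to 84.6% (trophoblast) for ES-only regions, and the housekeeping genes had 46.7% for ES-only regions. In wild type, 26.2% of all genes had an EB-only and 37.2% an ES-only region in reach. Cardiac genes had an ES-only region in 66.7% in KO and 80% in wild type, and Hox genes in 48.7% in KO and 79.5% in wild type, the largest ES-only shares of the wild-type lists. Esrrb, an orphan nuclear receptor of naive ES cells, had 0 EB-only and 4 ES-only regions, and Zfp42 0 and 3. Nanog had 3 EB-only and 0 ES-only regions, the endothelial gene Pecam1 3 and 0, and Runx1, the factor of definitive blood, 3 and 1. The blood and endothelial list that holds Pecam1 and Runx1 had more genes with ES-only than with EB-only regions, as did all genes. Of its 19 genes, 3 had an EB-only and 10 an ES-only region, with 8 and 17 regions. These shares were 15.8% and 52.6%, against 13.5% and 41.4% of all genes. Fgfr2, a receptor that acts in trophoblast, had 3 of each. The neighbouring genes Hoxc4, Hoxc5, Hoxc6 and Hoxc8 had 4 ES-only regions each within reach, and neighbours can count the same region.

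At Prdm16 itself (chromosome 4, 154316122 to 154637360), H3K4me1 had 6 and 3 peaks in KO EB and 7 and 6 in KO ES cells. A region at 154470749 to 154474877 had a peak in both KO EB and neither KO ES list, and one at 154444911 to 154447309 the reverse. Such peaks do not test a deletion, and these files hold no check of the KO labels.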

How the data were processed

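The 24 libraries were mapped to 12 groups of 2 by their titles. Per the file headers and names, each library has 1 list of MACS peaks with a score, which is the authors' deposited value; no source used here states its unit or any scaling. The submitters' processing notes name the build mm10 and, without roles, the tools MACS2, HOMER 4.10, Bowtie2, deepTools, SAMtools 1.5 and bedtools. Peaks were called per library, since each library has its own list.

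The mitochondrial peak of each list was set aside. Overlapping peaks (at least 1 bp) were merged into regions with Python 3.11.15, NumPy 2.4.6 and pandas 2.3.3, and a list counted for a region if any of its peaks overlapped it. The calls and the exact permutation tests were tested on simulated data. Genes were 21887 protein-coding genes of a RefSeq table (GRCm38.p6), given without strand or exons, so exon, intron and UTR were not resolved. Promoters, on hand for 17492 genes, came from RefSeq as well. All 354 list genes matched.

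The 4 lists compared, the gene lists and the tests were chosen with earlier results of these data known. Named are called list members, the 10 regions at gene ends per direction and the 10 genes with the same call in wild type of highest rank (the lower of the 2 score ranks), genes with the opposite call in wild type (10 at most per direction), and the 5 densest windows of 100 kb per direction. Promoters follow the first 3 such genes. Regions away from gene ends, single regions inside Prdm16 and genes named for nearby regions were chosen after their values were seen. Depth is unknown. Replicate numbers did not pair the samples: same-numbered libraries deviated from their group with a correlation of -0.011 in KO and -0.0089 in wild type. Alternatives were list length, score, coverage, merging distance, contigs, gene window, library series, each library left out and the replicate number as a block. A few genes that the naming rule chose are not reported here.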

Additional observations from a re-analysis of the deposited data

Results flagged for a closer look

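Genes whose H3K4me1 call in KO was the opposite of that in wild type stood apart because every library of one genotype went one way and every library of the other the opposite way. There were 6 EB-only genes of this kind and 16 ES-only genes. The difference between genotypes was not tested. Among the 6 were Podnl1, Foxo4, Cyb5a, Tacc2 and Coprs, each with a peak in 2 KO EB and 0 KO ES lists and in 0 wild-type EB and 2 wild-type ES lists. FOXO4 is a forkhead factor downstream of insulin signalling, and its region scored 83.8 and 69.9 in KO EB. At Tacc2 the KO H3K4me2 call was ES-only. At equal list lengths Tacc2 and Coprs lost the call, and Coprs scored 50.9 and 50.8, close to the lowest score in the lists.

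The 8 of highest rank among the 16 were Fam189b, Aldh3a2, 4921528I07Rik, Tead4, Rpl19, Lhfpl4, Sec11c and Cep57l1. TEAD4, the transcription factor that starts the trophoblast programme, scored 71.2 and 80.9 in KO ES, and the wild-type EB lists but not the wild-type ES lists had a peak at the gene. Cep57l1 had a different peak in each KO ES list. At equal list lengths 6 of these 8 lost the call, all but Fam189b and Aldh3a2. The 6 and the 16 genes make up 1.76% of the 340 and 0.90% of the 1780 genes called in KO. Of all genes, 6.68% were ES-only and 3.67% EB-only in wild type. Opposite calls were thus rarer among the genes called in KO than those calls were among all genes.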

How the results depend on the processing

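No difference between groups and no call of a named gene changed direction in the alternatives run. The higher of the EB-only and ES-only counts changed sides in 8 of the 18 gene lists under at least 1 setting. At equal list lengths 4 did so. These were Hox genes (2 EB-only and 1 ES-only), Wnt and Fgf ligands (4 and 2) and blood and endothelial genes (1 and 0). The PRDM family was the last of them (1 and 0). Under other settings the primed epiblast, cardiac and Notch lists changed sides. So did the Nodal, BMP and TGF-beta list, with 2 EB-only and 1 ES-only gene in the main setting. It had 0 and 1 at 1000 bp, 0 and 2 at the gene start alone and 0 and 1 with scores of at least 100. Without KO ES replicate 1 it had 3 and 6, and without replicate 2 it had 2 and 4. Counts moved by more than 1.5 times with the higher-scoring 50% of each list (979 EB-only and 3370 ES-only regions, 855 ES-only genes), with scores of at least 100 (242 and 2059 regions, 62 and 483 genes), with equal list lengths (2513 ES-only regions, 549 ES-only genes, 196 ES-only genes shared with wild type), with a window of 10000 bp (2972 ES-only genes, 1022 shared) and with the gene start only (217 and 1071 genes of 17492). With each KO ES list as long as the KO EB list of the same number, an alternative chosen after seeing the data, 2962 regions were ES-only. Leaving out 1 KO library, so that its stage is called on the other alone, gave 1985 to 6035 EB-only and 7131 to 11940 ES-only regions, 427 to 1045 EB-only and 1991 to 3171 ES-only genes. Genes shared with wild type numbered 146 to 242 EB-only and 688 to 856 ES-only when any of the 8 libraries was left out. The log2 difference in peak number was -1.27 to -0.69 and its difference between genotypes -1.23 to -0.65. The difference over the 12 other lists was 52.7 points with the higher-scoring 50% and 59.3 to 73.4 when a library was left out, and 68.7 points within the largest library series (exact permutation p = 0.0185). With the replicate number as a block, which did not pair the libraries, the peak number difference stayed -0.98 (exact permutation p = 0.5, the smallest possible), the difference between genotypes -0.94 (p = 0.375) and that over the other lists 71.2 points (p = 0.0312, the smallest possible); it changed no call. Of the 89 named genes, 49 kept their call at equal list lengths, 29 with scores of at least 100, 37 at the gene start alone, 67 at 1000 bp and 68 at 10000 bp; leaving out a library cannot end a call. Depth is unknown, so how far it sets the counts was not tested.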
